A study of Mus musculus with 30 samples.

Results

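Cytosolic ribosomal protein mRNAs are described here in 2 cultured mouse spermatogonial stem cell (SSC) lines. They were chosen by name: every symbol that starts with Rpl or Rps followed by a number, together with the P stalk genes (Rplp) and Rpsa, without the S6 kinase genes and without entries named as pseudogenes. The rule found 90 genes among the 14558 that have an RNA level or an mRNA half-life. Of these, 83 had an RNA level (of 13904 genes), 61 had a half-life (of 5806 transcripts) and 54 had both. As 74 of the 90 stand for a subunit of the ribosome found in most cells, they are called core subunits below. The other 16 are copies, pseudogenes under a gene's name, relatives expressed in few tissues and Rps19bp1, which encodes a nucleolar protein that binds RPS19.

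Both lines were derived from testes of postnatal day 7 pups (DBA/2J by C57Bl/6 hybrids) and were grown on mouse embryonic fibroblast feeders. One line was Nanos2TAG/+ (line 4) and one was Nanos2TAG/TAG (line 5), written TAG/+ and TAG/TAG below. TAG is an allele of Nanos2 that carries V5, Myc, a PreScission site, His6 and EGFP behind the start codon, so the TAG/+ line also makes tagged NANOS2, and neither line lacks the protein. RNA-seq gave 1 library per line of ribosomal RNA-depleted total RNA. SLAM-seq, in which 4-thiouridine (4SU) put into new RNA is chased and read as T-to-C conversions, gave 12 libraries per line, namely 2 technical replicates at each of 6 chase times between 0 and 1440 min. From these the authors fitted 1 half-life per transcript and line, which carries no error. Each line is 1 culture and 1 genotype, and the labels give QIAzol for the TAG/+ RNA-seq library and Trizol for the TAG/TAG library. Genotype, line and reagent therefore cannot be told apart, no test between the lines is possible, and all differences below are descriptions of 2 libraries or 2 fits.

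A ribosome holds 1 copy of most of its proteins, so cells have to make them in matched amounts. Most of these mRNAs begin with a C followed by a run of C and T at the cap, the 5′ terminal oligopyrimidine (TOP) motif, through which mTOR signalling and the protein LARP1 govern their translation and storage. Growing cells spend much of their mRNA on them, and spermatogonia are among the cells in which mTOR activity is known to matter.

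The start sites below show what a TOP start looks like among these genes and what its absence looks like in genes whose levels differed much (Rps13, Rpl36al) and little (Rpsa, Rplp0, Rpl39l) between the lines. Each is 15 bases before and 15 bases from the start annotated by RefSeq (GRCm38.p6). Capitals mark the C at the annotated start and the unbroken run of C and T behind it, where it has at least 4 bases after the C.
Rps6: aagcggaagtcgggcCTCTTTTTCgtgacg
Rps10: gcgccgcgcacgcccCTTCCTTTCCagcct
Rpl35: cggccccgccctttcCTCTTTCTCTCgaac
Rpl38: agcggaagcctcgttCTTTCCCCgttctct
Rplp2: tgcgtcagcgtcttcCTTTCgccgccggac
Rps13: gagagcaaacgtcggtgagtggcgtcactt
Rpl36al: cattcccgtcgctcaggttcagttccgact
Rpsa: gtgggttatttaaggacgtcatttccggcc
Rplp0: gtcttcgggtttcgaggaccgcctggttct
Rpl39l: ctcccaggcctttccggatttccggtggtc
The windows lie at chr4:86857353-86857382 (Rps6, minus strand), chr17:27635230-27635259 (Rps10, minus), chr2:39005117-39005146 (Rpl35, minus), chr11:114668565-114668594 (Rpl38, plus), chr7:141447636-141447665 (Rplp2, plus), chr7:116334176-116334205 (Rps13, minus), chr12:69184053-69184082 (Rpl36al, minus), chr9:120127751-120127780 (Rpsa, plus), chr5:115559452-115559481 (Rplp0, plus) and chr16:10170213-10170242 (Rpl39l, plus). RefSeq had a start for 67 of the 90 genes. A TOP start exactly at an annotated start was found for 15 of these 67 genes (22.4%), against 3.01% of all 27025 genes in the table and 0 of 69 mitochondrial ribosomal protein genes. When such a run, on the transcribed strand, was allowed anywhere from 10 bases before to 15 bases after the start, 61.2% of the ribosomal protein genes and 34.4% of all genes had one. A start that lacks capitals says only that the run is not at the annotated base. In Rplp2, the run of pyrimidines extends for several bases on either side of that base.

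The levels of these mRNAs were high in both lines, but they were not even. RNA levels are given as FPKM, which is reads scaled to transcript length and to a depth factor of the library. The 83 genes had a median of 363 FPKM in TAG/+ and 183 FPKM in TAG/TAG, against 10.2 and 10.5 over all genes. In both lines, 53 of the 83 were above the 90th percentile of all genes, against a background of 8.58%. Among the highest mean levels were those of Rps10 with 6522 FPKM in TAG/+ and 3813 in TAG/TAG, Rps2 with 5208 and 4125, Rpl23a with 4259 and 2488, and Rps26 with 4279 and 2275. These are subunits of the 40S (Rps) and the 60S (Rpl) particles. At the other end, Rpl5, whose protein carries 5S rRNA into the 60S particle together with RPL11, had 27.03 and 13.3 FPKM. Rpl11 itself had 100.6 and 61.5 FPKM. The proteins of a particle are needed in equal numbers, yet the mean FPKM of core subunits over both lines ranged from 20.1 (Rpl5) to 5167 (Rps10).

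The order of levels between genes is uncertain for a reason the sequences show. Mouse ribosomal protein genes have many processed copies, and the 50-base reads cannot always be placed. Of the 50-base windows in a gene's main transcript, the share found nowhere else in the genome had a median of 47.2% over the 90 genes, against 99.8% for mitochondrial ribosomal protein genes, and it was under 20% for 22 of the 83 genes with an FPKM. The RNA-seq table held 93 entries named as ribosomal protein pseudogenes, which were not counted as members. Of these, 91 carried the name of 1 of 41 members, and in 13 members the summed FPKM of these entries was above that of the gene in both lines. Rps13 had 106.7 and 12.6 FPKM, and its 3 pseudogene entries together had 1422 and 865.5. Rpl10a, which had no FPKM of its own, had 2 such entries with 5860 and 4344 FPKM. Rps23, which encodes a protein of the decoding centre, had 362 FPKM in TAG/+ and 198 in TAG/TAG once its pseudogene entry was added.

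Almost all of these mRNAs were lower in the TAG/TAG library. Of the 83 genes, 79 had a lower FPKM in TAG/TAG than in TAG/+, whereas 49.5% of all genes did. At least 2-fold lower were 37 of the 83 (44.6%), against 10.3% of all genes. At least 2-fold higher were 2 of the 83, against 14.3% of all genes. On the log2(FPKM + 0.1) scale, the TAG/TAG over TAG/+ ratio had a median of -0.94 for the members (middle range from the 25th to the 75th percentile -1.29 to -0.67) and 0.01 for all genes. Summed over the 83 genes, FPKM was 9.64% of the total in TAG/+ and 6.11% in TAG/TAG. In reads, this was 596785 of 10977831 and 397601 of 11656606. In bulk RNA, fewer cells of a type and less RNA per cell cannot be told apart.

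**Figure D1:**
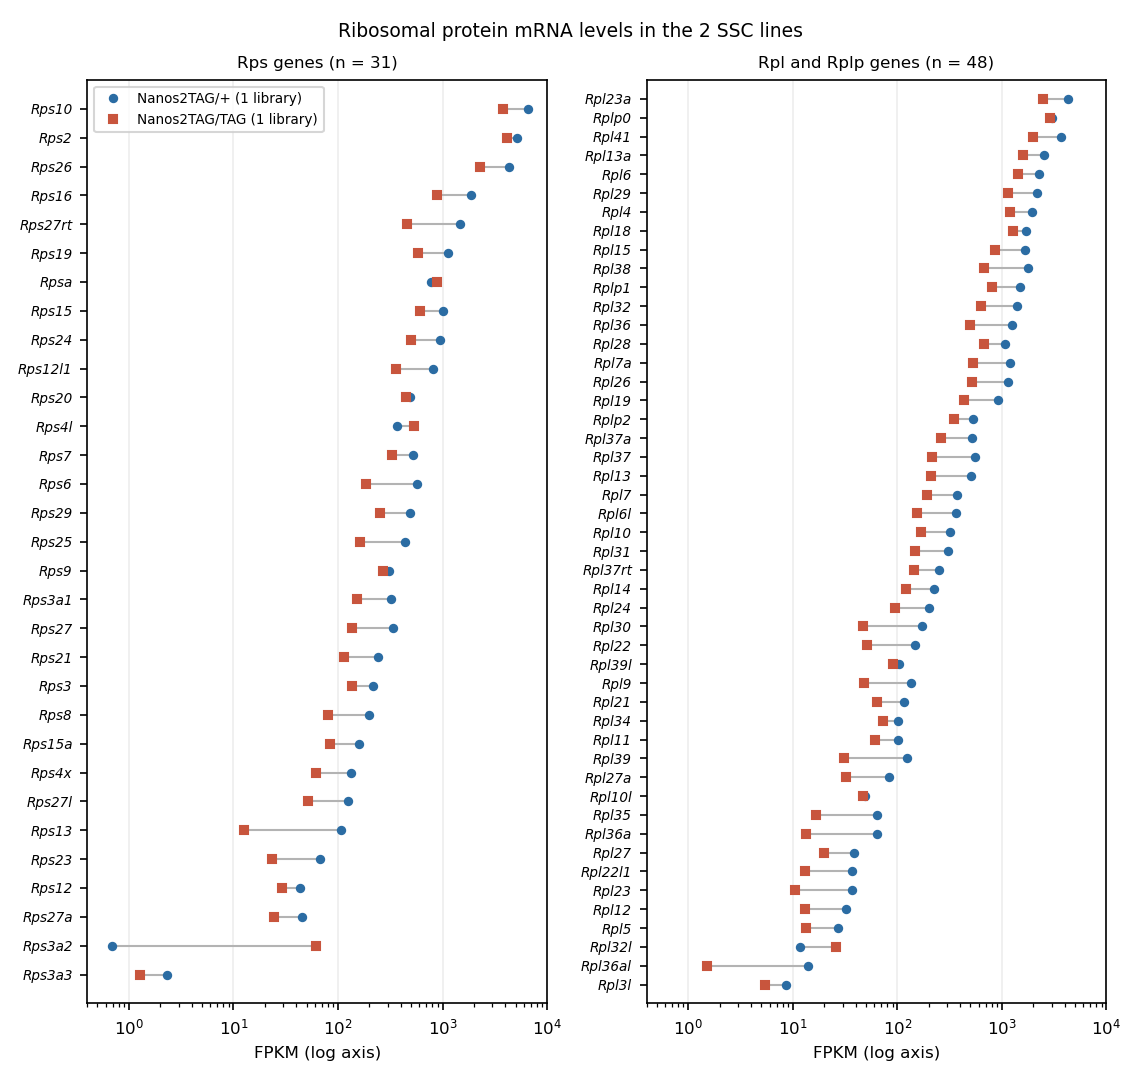
FPKM (log axis) of 79 of the 83 ribosomal protein genes with an RNA level, as circles for the Nanos2TAG/+ library and squares for the Nanos2TAG/TAG library, each value from 1 library and therefore without an error bar, with Rps genes on the left and Rpl and Rplp genes on the right, sorted by mean. The square lies to the left of the circle for 75 of the 79 genes drawn, and the exceptions are Rpsa, Rps4l, Rpl32l and Rps3a2.

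The lower level was found in both subunits. Among core subunits, all 38 Rpl genes and 27 of 28 Rps genes with an FPKM were lower in TAG/TAG, with medians of -1.03 and -0.92 on the log2 scale. At least 2-fold lower were 20 of the 38 and 11 of the 28. For 77 of the 83 genes, the interval that read counting alone gives for the ratio (95%, exact, conditional on the reads of both libraries) was wholly below 1, whereas this was so for 33.6% of 13884 genes. That interval holds no variation between cultures or library preparations, and no uncertainty in how reads were shared among near-identical copies.

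Among members lower in TAG/TAG, the largest differences were those of Rpl36al, Rps13, Rpl36a, Rpl39 and Rpl35, all 60S proteins apart from RPS13. Rpl36al, a relative of the X-linked Rpl36a on an autosome, had 14.0 FPKM (130 reads) in TAG/+ and 1.498 (15 reads) in TAG/TAG, which is 9.33-fold lower, with an interval of the TAG/TAG over TAG/+ ratio of 0.0583 to 0.183. Rps13 was 8.45-fold lower by its own entry (1366 and 174 reads). Added to its pseudogene entries, it was 1.74-fold lower, from 1528 to 878 FPKM. Rpl36a had 63.2 and 13.4 FPKM, a 4.73-fold difference that became 1.49-fold with its 2 pseudogene entries. Rpl39 had 123 and 30.8 FPKM, which is 3.99-fold lower and 1.92-fold lower with its pseudogene entry. Rpl35 had 63.9 FPKM (414 reads) and 16.6 (116 reads), 3.84-fold lower, and no pseudogene entry under its name. Rps6, the 40S protein that S6 kinases phosphorylate, had 570.4 and 183 FPKM. Rpl38, which has been linked to the translation of Hox mRNAs, had 1783 and 673 FPKM, and Rps19, the gene most often mutated in Diamond-Blackfan anaemia, had 1117 and 588.5. Rps27a, which is made as a fusion with ubiquitin, had 45.4 and 24.4 FPKM. Over the 38 members with both an FPKM and a pseudogene entry, all 38 were lower in TAG/TAG before and after the entries were added, the median went from -0.93 to -0.82, and the number at least 2-fold lower went from 17 to 12.

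A few core subunits barely differed. Rpsa, which encodes a 40S protein also known as the laminin receptor, was the only core subunit that was higher, with 779.5 FPKM in TAG/+ and 884 in TAG/TAG (log2 ratio 0.18). Rplp0, the base of the P stalk that recruits elongation factors, had 2999 and 2879 FPKM, a log2 ratio of -0.06 with a counting interval of the ratio from 0.944 to 0.976. The other stalk proteins had larger differences: Rplp1 had 1496 and 804 FPKM, and Rplp2 had 534 and 348. Rps20 had 485 and 449.5 FPKM, and Rps9 had 309 and 271. Rpsa stood at the 99.1 percentile of all genes in TAG/+ and at 99.3 in TAG/TAG, and Rplp0 at 99.8 in both.

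Copies and tissue-restricted relatives were lower in TAG/TAG in 11 of 14 cases, with a median log2 ratio of -0.79, and 6 of the 14 were at least 2-fold lower. The 3 that were higher are all annotated as pseudogenes. Rpl10l, an autosomal copy of the X-linked Rpl10 that serves male germ cells in meiosis, had 48.7 and 47.3 FPKM, whereas Rpl10 had 317 and 168. Rpl39l, the testis-enriched relative of Rpl39, had 104 and 91.0 FPKM and a log2 ratio of -0.19, against -1.99 for Rpl39. Every 50-base window of Rpl39l was unique in the genome, as against 55.9% for Rpl39. Rps4l, annotated as a transcribed processed pseudogene, was higher in TAG/TAG with 363 and 532 FPKM, while its X-linked parent Rps4x had 132 and 61.3. Rps27l had 124 and 52.0 FPKM, close in fold to Rps27 with 338 and 135, and the retrogene Rps27rt had 1466 and 462. Rpl22l1 and Rpl22, which encode proteins that can replace each other, had 37.0 and 12.99 FPKM, and 148 and 51.5 FPKM. Rpl3l, the striated muscle form of Rpl3, was low in both lines with 8.69 and 5.44 FPKM. Rpl37rt, a retrogene of Rpl37, had 251 and 145 FPKM against 553.5 and 215 for Rpl37, and Rpl26 had 1155 and 523. Some entries that bear a gene's name are annotated as processed pseudogenes, and their levels were wide apart. Rpl6l had 361 and 153 FPKM. Rps3a3 had 20 and 12 reads. Rpl32l had 51 and 120 reads, with 11.7 and 25.6 FPKM. Rps3a2 had 6 reads in TAG/+ and 569 in TAG/TAG, the widest gap of any member, with 9.83% of its windows unique.

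**Figure D2:**
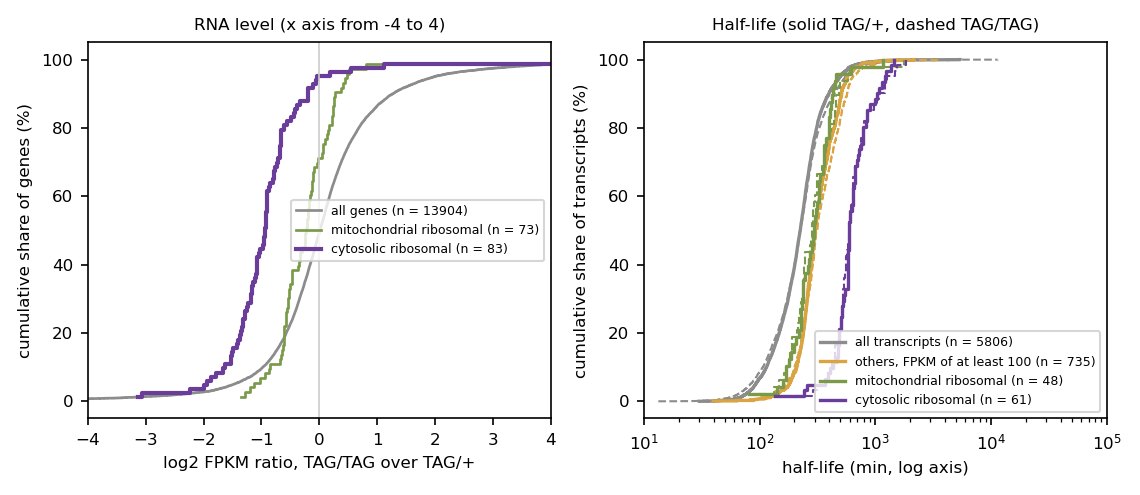
Cumulative share of genes or transcripts against the log2 FPKM ratio of TAG/TAG over TAG/+ (left, 1 library per line) and against half-life in min on a log axis (right, solid TAG/+, dashed TAG/TAG, 1 fit per line). The cytosolic ribosomal curve lies to the left of all genes on the left panel, with medians of -0.94 and 0.01, and to the right of all transcripts on the right panel, with medians of 595 and 224 min in TAG/+.

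Genes with related functions had smaller median differences than the 83 members, whose median log2 ratio was -0.94. The 10 members with at least 80% unique windows had a median of -0.54, and 1 of them was at least 2-fold lower. That median was near the -0.48 of the 15 other TOP mRNAs. The median share of unique windows was 47.2% for members and 99.8% for mitochondrial ribosomal protein genes, and its part in the contrast was not tested. The 73 mitochondrial ribosomal protein genes with an FPKM had a median log2 ratio of -0.23, and 5 were at least 2-fold lower. The 30 ribosome assembly factors had a median of -0.33 with 1 at least 2-fold lower, and these include Nop56 of the box C/D complex with 328 and 181 FPKM. The 15 other mRNAs known as TOP mRNAs, such as those of elongation factors, had a median of -0.48, with 2 at least 2-fold lower (Btf3 and Naca, both parts of the nascent polypeptide-associated complex) and 13 of the 15 lower by any amount. Eef1a1, whose protein brings aminoacyl-tRNA to the ribosome, had 9186 FPKM in TAG/+ and 5800 in TAG/TAG. Rack1, a 40S protein, had 1020 and 664 FPKM. Among members, the median log2 ratio was -0.96 for 13 genes with a TOP run exactly at the annotated start and -0.98 for 49 genes without. Only 2 of 11 other TOP mRNAs had a run at that base, so this split does not separate TOP mRNAs from others.

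Some measures of the libraries went along with the lower level, and their part in it was not tested. For transcript length, the members' annotated transcripts had a mean length of 701 bases at the median (25th to 75th percentile 568 to 868), and the 987 other genes within that range with an FPKM of at least 1 had a median log2 ratio of -0.12, as against 0.04 for 2817 other genes of at least 2500 bases. Taken relative to these genes of like length, the members' median was -0.82, with 29 at least 2-fold lower. For uniqueness, the 10 members with at least 80% unique windows had a median of -0.54, and 1 of the 10 was at least 2-fold lower, a share near that of all genes. This one was Rpl22, and 9 of the 10 were lower by any amount, from Rps20 at -0.11 to Rpl22 at -1.53. The 10 include Rps4l, Rpl39l and Rpl3l, which are not core subunits and had log2 ratios of 0.55, -0.19 and -0.67. Of the 10, Rpl4 had 1939 and 1206 FPKM, Rpl18 1719 and 1279, and Rps3 215 and 136. Across the 83 members, Spearman's rho of the log2 ratio with the unique share was 0.35. For the cells, the study's methods describe sorted SSCs for RNA-seq, while the labels describe depletion of feeders. Of 14 fibroblast genes, 13 had an FPKM, and 11 of the 13 were higher in TAG/TAG, with a median log2 ratio of 0.45. Pdgfrb, a receptor of mesenchymal cells, had 0.660 and 6.75 FPKM. The 13 genes summed to 337 in TAG/+ and 408 in TAG/TAG, none was at 0, and most of each sum was Fn1 (254 and 280). The SSC label was met by markers of undifferentiated spermatogonia, of which 11 of 12 had an FPKM and summed to 1570 and 1812. The highest of the 11 alone had 806 and 820. Of the 11, 6 were lower in TAG/TAG, and the median log2 ratio was -0.07. Zbtb16, a transcription factor of these cells, had 107 and 102 FPKM, and the marker Id4 was low with 1.76 and 1.59. In this list, Etv5 and Ret, which respond to GDNF, had 46.0 and 73.2 FPKM in TAG/+ and 178 and 181 in TAG/TAG.

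**Figure D3:**
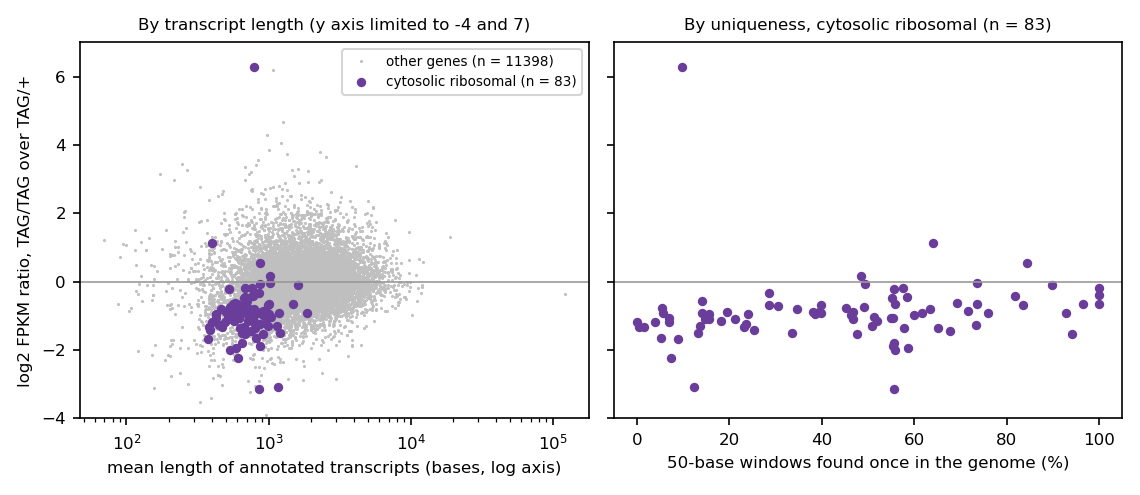
Log2 FPKM ratio of TAG/TAG over TAG/+ against the mean length of annotated transcripts in bases (left, log axis, 83 members over 11398 other genes with an FPKM of at least 1) and against the percent of a transcript's 50-base windows that are found nowhere else in the genome (right, 83 members). Each point is 1 gene and 1 library per line. Of the 83 members, 79 lie below 0, and the 10 with at least 80% unique windows have a median of -0.54, as against -0.94 for all members. The 10 include Rps4l, Rpl39l and Rpl3l, which are not core subunits.

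The half-lives of these mRNAs were long in both lines. The 61 members with a half-life had a median of 595 min in TAG/+ and 605 min in TAG/TAG, against 224 and 226 min over all 5806 transcripts. In both lines, 58 of the 61 were above the 75th percentile of all transcripts (289 min in TAG/+ and 299.8 in TAG/TAG), against a background of 19.1%. The middle range ran from 516 to 758 min in TAG/+ and from 524 to 743 in TAG/TAG. Over all transcripts it ran from 162 to 289 min and from 159 to 299.8 min. Of the 61, 46 lay between 400 and 1000 min in both lines. In related lists, 14 of 16 other TOP mRNAs (medians 430 and 505 min) were above the 75th percentile in both lines, as were 18 of 48 mitochondrial ribosomal protein mRNAs (295 and 284 min) and 8 of 28 assembly factor mRNAs (267 and 254 min). Highly expressed transcripts in general had lower medians. The 735 other transcripts with an FPKM of at least 100 in both lines had medians of 303 and 314 min, and 129 with at least 300 had 396 and 430 min. Above the 75th percentile of all transcripts in both lines were 47.9% of the 735 and 74.4% of the 129, against 95.1% of the members. Of the 735, 82 had a transcript length within the members' middle range, and 65.9% of these 82 were above it in both lines. Across the 54 members with both values, mean FPKM and half-life had a Spearman's rho of 0.15, as against 0.52 across 5152 genes, which share the same libraries. The Rps and Rpl proteins did not stand apart, with medians of 626 and 589 min in TAG/+ and 605 and 593 min in TAG/TAG. By uniqueness, 30 members with under 50% unique windows had medians of 602 min in TAG/+ and 609 in TAG/TAG. The 11 with at least 80% had 543 and 520 min, and 81.8% of them were above the 75th percentile in both lines. These 11 include Rps19bp1, Rpl7l1 and Rpl39l, which are not core subunits. The part of near-identical copies in the half-lives was not tested.

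The longest-lived were Rps21, Rplp2, Rpl14, Rps29 and Rps27rt. Rps21 had 1443 min in TAG/+ and 1543 in TAG/TAG, Rpl14 1214 and 1486, Rps29 1363 and 1213, and Rps27rt, a retrogene of Rps27, 1237 and 1274. All 3 stalk proteins were among the long-lived mRNAs: Rplp0 had 1041 and 1032 min, Rplp1 989 and 1086, and Rplp2 1135 and 1853. Rpsa had 909 and 788 min. The fits of 1 member in TAG/+ and 3 members in TAG/TAG exceeded 1440 min, which is beyond the sampled times.

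The 2 shortest-lived were not core subunits. Rps19bp1 had 135 and 159 min, below the median of all transcripts, and Rpl7l1, a relative of Rpl7 that acts in ribosome assembly, had 240 and 292. Of the core subunits, Rpl13a was the shortest in TAG/+ with 259 min, and it had 447 min in TAG/TAG. Rpl13a belongs to the genes that host small nucleolar RNAs in their introns and its protein can leave the ribosome in myeloid cells. Rpl10a had 366 and 376 min. Rpl10l (394 and 416 min) and Rpl39l (409 and 505 min) also lay below most core subunits, and Rpl10 had 431 and 558 min, Rpl39 663 and 617. The retrogene Rpl37rt was close to its parent, with 485 and 500.4 min against 473 and 546. Rpl22l1 had 787 and 640.3 min and Rpl22 589 and 524.

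**Figure D4:**
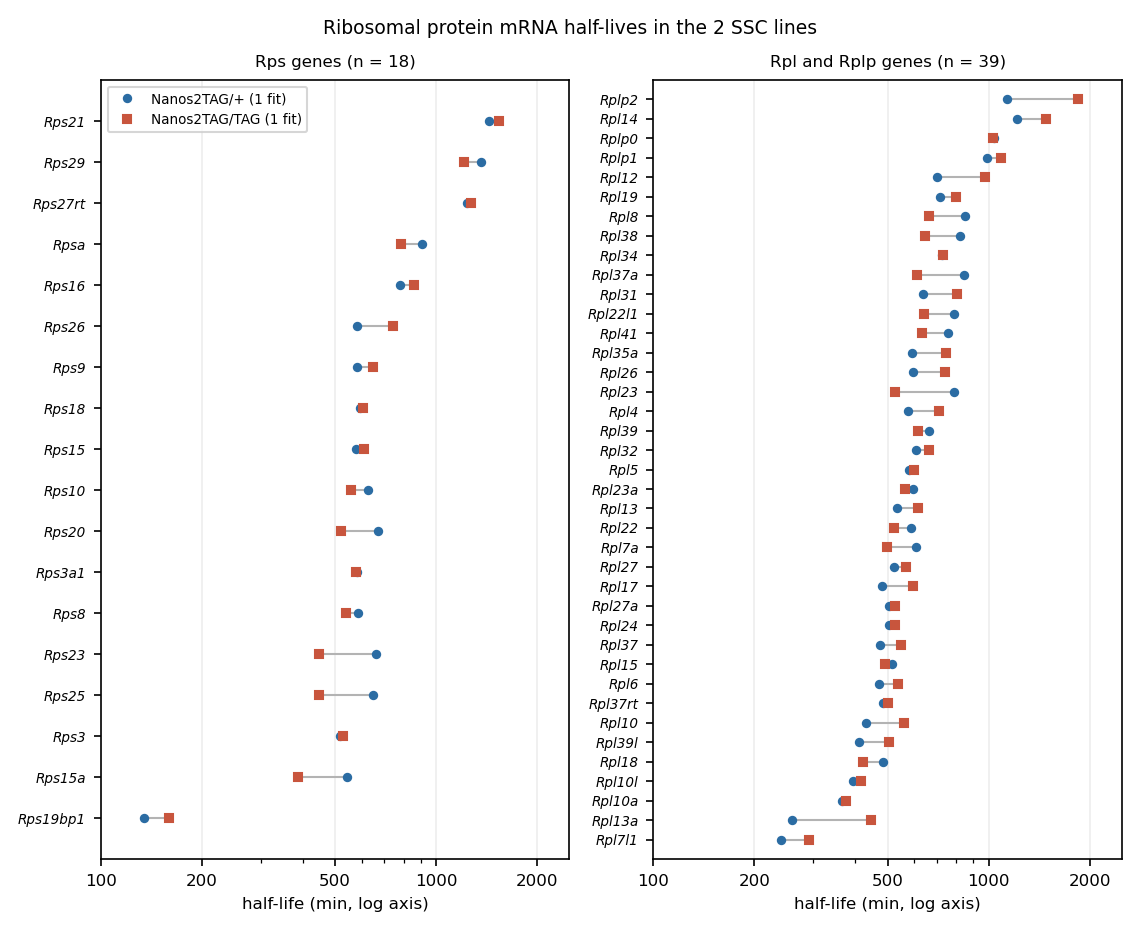
Half-life in min (log axis) of 57 of the 61 ribosomal protein mRNAs with a fit, as circles for Nanos2TAG/+ and squares for Nanos2TAG/TAG, each from 1 fit over 12 libraries and therefore without an error bar, with Rps genes on the left and Rpl and Rplp genes on the right. Of the 57 drawn, 44 lie between 400 and 1000 min in both lines, Rps21, Rplp2 and Rpl14 lie highest and Rps19bp1 lowest.

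Between the lines, half-lives differed in both directions. The TAG/TAG over TAG/+ ratio had a median of 0.05 on the log2 scale, against 0.04 for all transcripts, and 37 were longer and 24 shorter in TAG/TAG, as were 3139 and 2667 of the 5806 transcripts. At least 1.5-fold apart in either direction were 3 of the 61 (4.92%), against 20.7% of all transcripts. Other highly expressed transcripts were near the members in this. The share was 8.16% of 735 with an FPKM of at least 100 in both lines and 2.33% of 129 with at least 300. Rpl13a (1.73-fold) and Rplp2 (1.63-fold) were longer in TAG/TAG, and Rpl23 was shorter. Within 1.5-fold, Rps23, Rps25 and Rps15a had log2 ratios of -0.57, -0.53 and -0.49, and Rpl12 and Rpl10 had 0.48 and 0.37. The order of half-lives was similar in both lines, with a Spearman's rho of 0.76 across the 61 members and 0.77 across all transcripts.

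The lower level had no counterpart of one direction in half-life. Of the 54 members with both values, 53 had a lower FPKM in TAG/TAG, and of these 53, 31 had a longer half-life and 22 a shorter one. The 24 that were at least 2-fold lower in FPKM had a median half-life ratio of 1.03, with 13 longer and 11 shorter, and the other 30 had 1.04. Across the 54, the log2 ratios of FPKM and half-life had a Spearman's rho of 0.27. Rpl23 was lower in TAG/TAG in both readouts, with 36.8 and 10.6 FPKM and with 789 and 526 min. Rpl12 had 32.1 and 13.1 FPKM, and its half-life was longer, with 700.5 and 975 min. The RNA-seq and SLAM-seq samples of a line are separate libraries, and half-lives come from 3′ end reads while FPKM comes from whole transcripts.

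**Figure D5:**
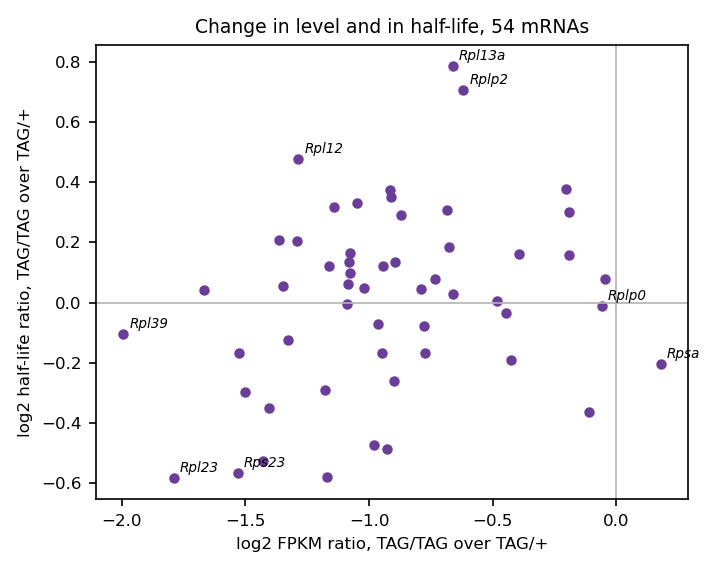
Log2 ratio of half-life against log2 ratio of FPKM, TAG/TAG over TAG/+, for the 54 ribosomal protein mRNAs with both values, 1 point per gene and without error bars. Of the 54 points, 53 lie to the left of 0 in FPKM, while 31 lie above and 23 below 0 in half-life.

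The study asks where NANOS2 binds mRNAs, with 3′ UTRs as the main place and a 7-base site as its consensus. The members' 3′ UTRs were mostly short. In 1 coding transcript per gene (GENCODE M21), the 83 members with an annotated 3′ UTR had a median of 89 bases, against 1050 over 13006 genes. Among a gene's transcripts of equal annotation rank, the one with the longest 3′ UTR was taken. The NANOS2 consensus stands for the word AUGAAAU, the word AUGAAUU, the word AUUAAAU and the word AUUAAUU. These, counted on the transcribed strand with overlaps, were found in 9 of the 83 (10.8%) and in 38.7% of all genes. Per 1000 bases of 3′ UTR, there were 0.669 matches in members and 0.493 in all genes. The members' value rests on few genes, as of their 20 matches 7 were in Rps15a and 3 each in Rps20 and Rpl5. Among members with at most 200 bases, 0 of 50 had a match, against 7.31% of 1477 genes with at most 200 bases. The sizes within that limit differ, with medians of 49 bases in these members and 120 bases in these genes. The matches below are from members whose level differed little (Rpsa, Rps20) and from others at least 2-fold lower (Rpl22, Rpl27a), and the word is in capitals.
Rpsa: attgtaagacATTAAATtgtgtcatta
Rps20: ggctgacctcATTAAATatcaatctta
Rpl22: aatgttttgtATTAATTcataaataaa
Rpl27a: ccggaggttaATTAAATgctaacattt
They lie in 3′ UTR exons of GRCm38 at chr9:120132329-120132355 (Rpsa, plus strand), chr4:3834086-3834112 (Rps20, minus), chr4:152332440-152332466 (Rpl22, plus) and chr7:109521738-109521764 (Rpl27a, plus). Of the 9 members with a match, Rps15a had 7, in a 3′ UTR annotated at 4728 bases, Rps20 and Rpl5 had 3 each, Rpl27a had 2, and Rpsa, Rpl15, Rpl21, Rpl22 and Rpl31 had 1 each. The matches of Rpl5 overlap each other. Their log2 FPKM ratios ranged from -1.53 (Rpl22) to 0.18 (Rpsa), and 8 of the 9 had a half-life. The half-lives with a match ran from 505 min (Rpl27a) to 909 min (Rpsa) in TAG/+, all above the median of all transcripts. Of all 61 members with a half-life, 60 were above that median in both lines, so this does not set members with a match apart. A match is a run of letters and not a measured site.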

How the data were processed

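RNA levels were taken from the FPKM values that the authors deposited for 1 library per line, and the submitters' processing notes name kallisto and DESeq2. The genome build of this table is not given in the sources used here. Whole reads were recovered by multiplying FPKM by the mean length of annotated transcripts (GENCODE M21). This gave whole numbers, within 0.02, for 100% of 13884 genes at scaling depths of 10908790 (TAG/+) and 11738620 (TAG/TAG). These depths are divisors and not read totals, as the recovered reads sum to 10977831 and 11656606. kallisto shares reads among similar transcripts, so the recovered reads are estimates, and levels of genes with near-identical copies are uncertain. Intervals (95%, Clopper-Pearson) treat these estimates as counts and cover counting error only.

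Half-lives in min, deposited as 1 value per transcript and line, were fitted by the authors with SlamDunk and nls, after rates were normalised to 0 min and technical replicates were collapsed. The labels name the half-life tables CTL (TAG/+) and EXP (TAG/TAG), and their depth is unknown. No per-sample column was left unmapped. CRAC libraries were not analysed here. The values of 5 genes are not reported here singly, and 4 of them, which are members, are counted in all summaries but not drawn by name.

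Ratios are log2((FPKM + 0.1)/(FPKM + 0.1)), and a gene was called at 2-fold (half-life at 1.5-fold) without a test. Genes were named by rule: the 5 highest and lowest in FPKM, half-life and both ratios, the copies with their parents, and known subunits (Rplp0, Rplp1, Rplp2, Rps6, Rpl5, Rpl11, Rpsa, Rps27a, Rpl10a, Rpl38, Rps19, Rps23). Others were named after their values were seen. Members and lists were chosen with earlier results of these data known. Python 3.11.15, pandas 2.3.3, numpy 2.4.6 and scipy 1.17.1 were used, and the read recovery was tested on simulated data.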

Additional observations from a re-analysis of the deposited data

How the results depend on the processing

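With 1 library or 1 fit per line, no replicate can be left out. No paired analysis was possible because the results come from no test and each line has 1 value. The count of 37 members at least 2-fold lower in FPKM was 67 at a fold of 1.5. Chosen after seeing the data, it was 15 of 38 members (median log2 ratio -0.88) with at least 50% of windows unique and 1 of 10 (median -0.54) with at least 80%, where fewer members are counted, and relative to other genes of similar length the median was -0.82. Other FPKM alternatives (pseudocount of 1, FPKM limits, centring, core subunits, pseudogene entries added) gave counts of 31 to 37. With pseudogene entries added, the share of summed FPKM was 12.1% in TAG/+ and 7.77% in TAG/TAG. When only half-lives of at most 540 min were used, 11 members were above the upper quartile and the medians were 471 and 469 min, since longer ones are dropped by construction. The count of members at least 1.5-fold apart in half-life was 5 when centred on all transcripts and 0 at a fold of 2. Against transcripts with an FPKM of at least 100 in both lines, 50 of 61 members were above the upper quartile.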

Other observations

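Rps24 went against the larger of its pseudogene entries. Rps24, a 40S protein gene with alternative 3′ exons, had 936 FPKM in TAG/+ and 499.8 in TAG/TAG, while its 2 pseudogene entries summed to 522 and 654. Nearly all of that sum was Rps24-ps3 (519 and 652), and Rps24-ps2 had 11 and 10 reads. Of the 93 pseudogene entries, 73 were lower in TAG/TAG, with a median log2 ratio of -0.75, and these entries made up 2.47% of the summed FPKM in TAG/+ and 1.69% in TAG/TAG. The processed copy Rps12l1, none of whose windows was unique, had 812 and 359 FPKM, whereas Rps12 had 42.9 and 29.03.

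Markers of later germ cells differed in level and direction. Of 5 genes of differentiating spermatogonia, 4 were lower in TAG/TAG, with a median log2 ratio of -0.40, and Kit had 38.5 and 30.7 FPKM. Among 4 meiotic genes, 2 were at least 2-fold lower in TAG/TAG and the others were higher, with a median of -0.45. The highest of them had 267 FPKM in TAG/+ and 133 in TAG/TAG. Of 4 Sertoli cell genes, none was lower, and Wt1 had 2.51 FPKM in TAG/+ and 19.6 in TAG/TAG.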
